A study of Rattus norvegicus with 12 samples.

Results

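The genes described here are 40 genes that interferons are known to induce, read in the hearts of rats given the kinase inhibitor sorafenib. They were chosen as the rows of the count tables whose gene symbol is one of a fixed list of 40 symbols, and all 40 were found among the 34322 genes of the tables. All of them passed the filter on low counts in each comparison. The list spans transcription factors, virus restriction factors, sensors of foreign RNA, oligoadenylate synthetases, guanylate-binding proteins and the antigen-processing machinery.

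Wild-type male SD rats received sorafenib by daily dosing at 50 mg per kg, or an equal volume of deionized water, and the heart was taken after 14 or 28 days. The 4 groups of 3 libraries each were thus water for 14 days, sorafenib for 14 days, water for 28 days and sorafenib for 28 days. The libraries hold ribosome-depleted RNA of the whole heart, so a lower value may stand for fewer cells of a type or for less RNA per cell, and these cannot be told apart. Nothing in the labels ties each library to a rat of its own, and p-values therefore measure only the spread between these libraries, which may be technical.

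Interferons are secreted proteins released when cells sense foreign or misplaced nucleic acid. Type I interferons act through a receptor that activates the kinases JAK1 and TYK2, and a complex that holds STAT2 and IRF9 then binds the interferon-stimulated response element (ISRE). Interferon gamma acts mainly on the gamma-activated site (GAS) and through the induced factor IRF1. In the heart, resident macrophages, endothelial cells, fibroblasts and cardiomyocytes can all carry this response, and a low basal level of it is present without infection.

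Promoter sequences were available for 30 of the 40 genes in RefSeq's table for the assembly GRCr8. The core of the ISRE, spelled GAAANNGAAA or TTTCNNTTTC on the opposite strand, was searched in the 250 bases upstream of each start on both strands. It was present in 16 of the 30 windows (53.3%), against 3.41% of all 33469 windows of the same length. The core of the GAS, TTCNNNGAA, which reads the same on both strands, was present in 7 of 30 (23.3%), against 7.67% of all windows. Overlapping matches were counted separately, and a match describes letters and not a site shown to be bound. The ISRE core was found in Irf7, Rsad2, Oas1a, Oas1b, Oasl2, Ifit3, Ifi27, Ifi44, Ifih1, Gbp2, Gbp5, Xaf1, Parp14, Eif2ak2, Bst2 and Tap1.

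Below are 80 bases upstream of 11 of these genes, 5′ to 3′ on the gene's own strand, with the ISRE core (for Irf1 the GAS core) in capitals. The first 5 are the matched genes that fell in the average of both days. Oas1a and Oas1b are the relatives of Oas1k, the gene that ran against the set, Ifit3 is a classic ISRE gene, and Gbp2, Tap1 and Irf1 stood apart in 1 water library. The stretch of Irf7 is chr1:205800048-205800127 (minus strand), of Rsad2 chr6:48788223-48788302 (minus), of Oasl2 chr12:47383292-47383371 (minus), of Eif2ak2 chr6:21941074-21941153 (plus) and of Bst2 chr16:18255051-18255130 (minus). That of Oas1a is chr12:41330386-41330465 (plus), of Oas1b chr12:41395864-41395943 (minus), of Ifit3 chr1:241527246-241527325 (plus), of Gbp2 chr2:234005647-234005726 (plus), of Tap1 chr20:4668620-4668699 (minus) and of Irf1 chr10:38417757-38417836 (plus), all in GRCr8.
Irf7: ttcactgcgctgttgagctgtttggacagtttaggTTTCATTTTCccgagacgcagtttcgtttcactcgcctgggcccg
Rsad2: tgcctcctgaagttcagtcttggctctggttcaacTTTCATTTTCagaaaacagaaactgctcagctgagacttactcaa
Oasl2: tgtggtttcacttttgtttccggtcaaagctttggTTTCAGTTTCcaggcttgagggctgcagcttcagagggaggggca
Eif2ak2: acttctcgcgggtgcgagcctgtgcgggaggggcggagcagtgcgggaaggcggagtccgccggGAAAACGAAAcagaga
Bst2: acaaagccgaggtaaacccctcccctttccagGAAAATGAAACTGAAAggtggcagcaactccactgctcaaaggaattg
Oas1a: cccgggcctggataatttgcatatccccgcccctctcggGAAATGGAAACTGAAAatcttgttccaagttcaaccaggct
Oas1b: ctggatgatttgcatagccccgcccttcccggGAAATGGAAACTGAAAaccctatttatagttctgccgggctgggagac
Ifit3: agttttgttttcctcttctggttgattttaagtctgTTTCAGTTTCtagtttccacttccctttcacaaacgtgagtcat
Gbp2: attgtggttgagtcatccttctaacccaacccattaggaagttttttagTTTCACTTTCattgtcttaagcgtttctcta
Tap1: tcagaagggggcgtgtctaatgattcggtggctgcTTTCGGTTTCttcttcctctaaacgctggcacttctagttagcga
Irf1: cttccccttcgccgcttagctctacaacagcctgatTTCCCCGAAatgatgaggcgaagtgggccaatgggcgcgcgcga

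The libraries of day 14 held 13746366 to 18534816 counts each. Those of day 28 held 16785038 to 26403196, except sorafenib replicate 3 with 1036483, where 1 count equals 0.965 CPM (the count scaled to a common library size). In that library members near 1 CPM rest on single counts, and Oasl had none. Cardiomyocyte markers summed to between 93130 and 200300 CPM in the 12 libraries. The ribosomal precursor Rn45s took 1.643% of its counts, 1.255% in sorafenib replicate 2 of day 28, 0.842% in sorafenib replicate 5 of day 14 and at most 0.537% elsewhere. Values below are CPM normalized by the trimmed mean of M-values (TMM), and fold changes are on the log2 scale with their standard error (SE). Called means a Benjamini-Hochberg adjusted p below 0.05 over all genes tested with edgeR's quasi-likelihood test. A gene is said to have fallen or risen where it was called lower or higher.

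In water hearts the members spanned a wide range of levels. Per kilobase of exon, the mean over the 6 water libraries was highest for Ifi27 at 95.3 CPM ± 26.7 (SD, n = 6), followed by Bst2, the virion tether tetherin, at 53.2 ± 19.2. Trim25, a ubiquitin ligase that activates the RNA sensor RIG-I, was at 39.3 ± 6.85 and Irf7 at 17.3 ± 4.77 CPM per kilobase. Between ranks 5 and 24 of 40, from Parp14 at 15.8 to Ifih1 at 6.54, neighbours in the order differed by less than their SD. The lowest were Oas1k at 1.05 ± 0.560, Oas2 at 0.871 ± 0.515 and Zbp1, a sensor of Z-form nucleic acid, at 0.145 ± 0.0359 CPM per kilobase.

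Averaged over both days with equal weight, the interferon response genes were lower with sorafenib. Of the 40, 37 had a log2 fold change below 0, with a median of -0.71, against 50.8% of 18174 genes below 0 and a median of -0.01 over all genes. The test called 7 members lower, which were Irf7, Rsad2, Rtp4, Mx2, Oasl2, Eif2ak2 and Bst2, where 2.41% of all genes were called lower. It called 1 member higher, Oas1k, where 2% of all genes were called higher. DESeq2 called 17 members (16 lower and 1 higher), against 10.7% of the 17106 genes it gave an adjusted p. Of the 40, 29 had an unadjusted p below 0.05 on the lower side, against 13.2% of all genes. The 3 members above 0 were Oas1k, Gbp6 and Trim25. The count of calls rested on single libraries. It was 0 of 40 without water replicate 3 of day 14 and 0 without sorafenib replicate 2 of day 28, where the calls over all genes also fell from 801 to 60 and 35. It was 3 and 4 without sorafenib replicates 6 and 7 of day 14, and 5 without water replicate 2 of day 14 or water replicate 4 of day 28. Over the 18 alternatives the number of members below 0 stayed between 36 and 37 and the median between -0.82 and -0.51.

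**Figure D1:**
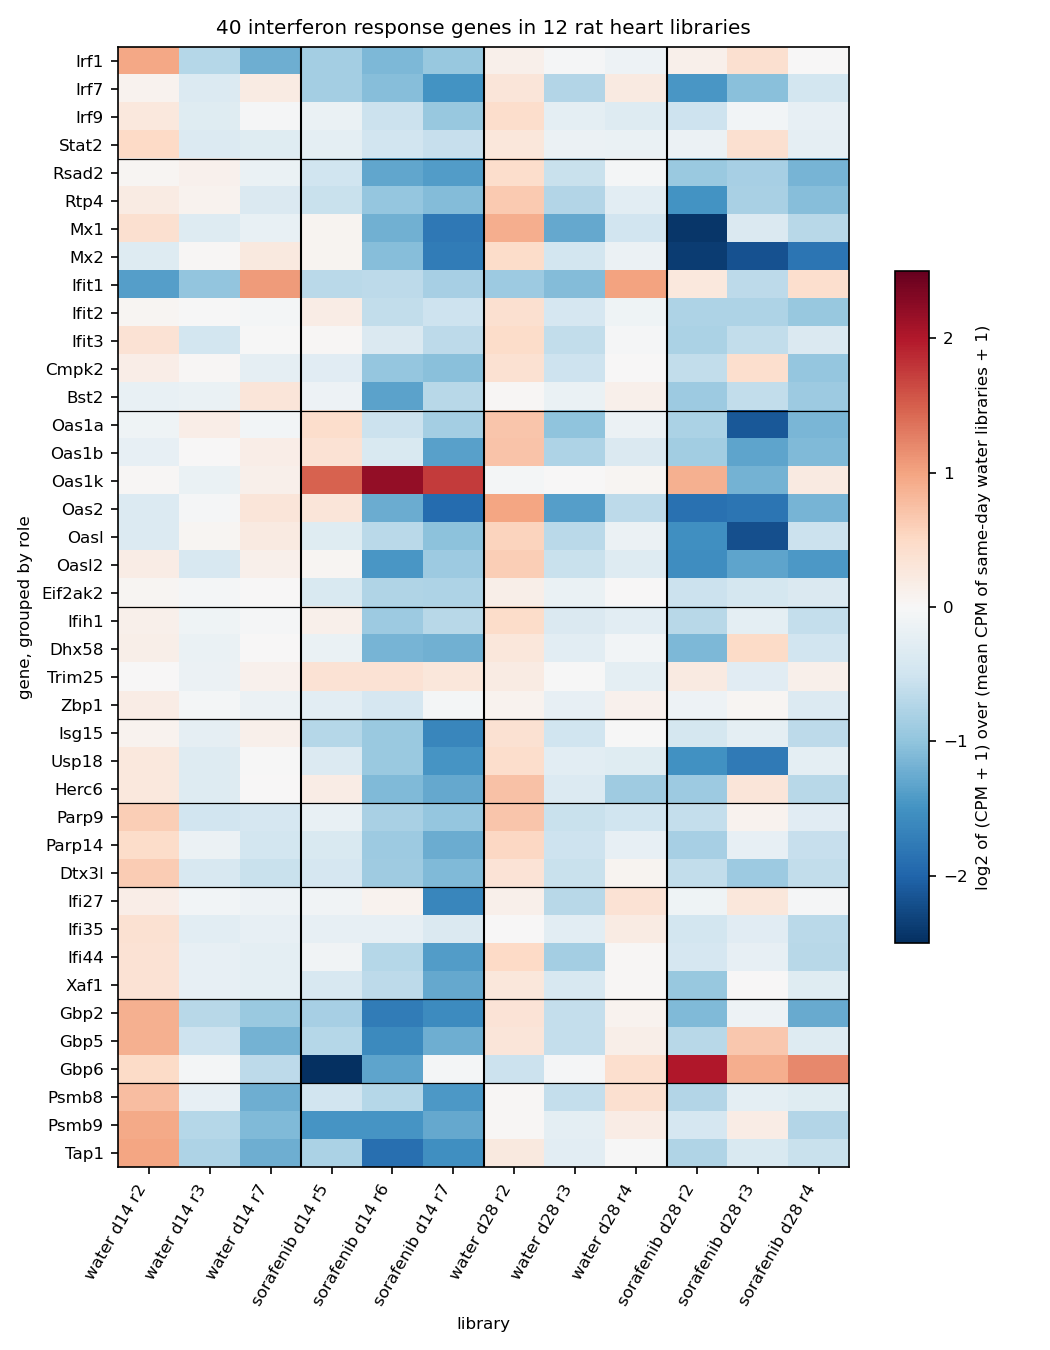
Heat map of the 40 members (rows, grouped by role) in 12 libraries (columns), as log2 of CPM + 1 over the mean CPM + 1 of same-day water libraries, with blue for lower and red for higher. Most rows are blue in sorafenib replicates 6 and 7 of day 14 and in the sorafenib libraries of day 28, while Oas1k is red at day 14 and Gbp6 at day 28.

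At day 14 alone, 38 of 40 members were lower (median -0.75), against 49.8% of 17406 genes. Of the members 0 passed the adjusted test, in which 0% of all genes passed. DESeq2 called 7 members (6 lower, and Oas1k higher), against 2.98% of 14700 genes with an adjusted p. On the lower side 16 members had an unadjusted p below 0.05, against 6.93% of all genes. On the higher side there were 2, Oas1k and Trim25, against 7.09%. At day 28, 33 of 40 were lower (median -0.55), against 50.2% of 17021 genes. There 0 members passed the adjusted test, in which 0% of all genes passed, whereas DESeq2 called 4 (3 lower, and Gbp6 higher), against 1.74% of 16028. There, 16 members had an unadjusted p below 0.05 on the lower side, against 7.83%, and 1, Gbp6, on the higher side, against 7.04%.

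All sorafenib libraries lay below all water libraries for 10 members at day 14, against 10.6% of all genes, and for 11 at day 28, against 11.9%. Rsad2, Rtp4 and Eif2ak2 did so at both days, which are 3 of 40 members against 3.61% of 16641 genes. Sorafenib replicate 5 of day 14 lay close to the water libraries. Its median over the members, as log2 CPM relative to the water mean, was -0.21, against -0.92 and -1.09 in replicates 6 and 7 and -0.18 to 0.25 in the water libraries. It was below all water libraries for 12 members, and replicates 6 and 7 for 32 and 34. Without it the number of members with separate groups at day 14 was 30, against 17.5% of all genes. Without water replicate 7 it was 18, against 16.8%. At day 28 it was 17 without the shallow sorafenib replicate 3, against 17.2%, and 22 without water replicate 3, against 14.5%. The members' median of water replicate 3 of day 28 was -0.45, below the -0.26 of sorafenib replicate 3. Summed CPM of the members overlapped between the groups at both days. It was 1168 to 1785 with water and 686.1 to 1205 with sorafenib at day 14. The ranges of day 28 were 751.7 to 1306 and 663.4 to 830.2.

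**Figure D2:**
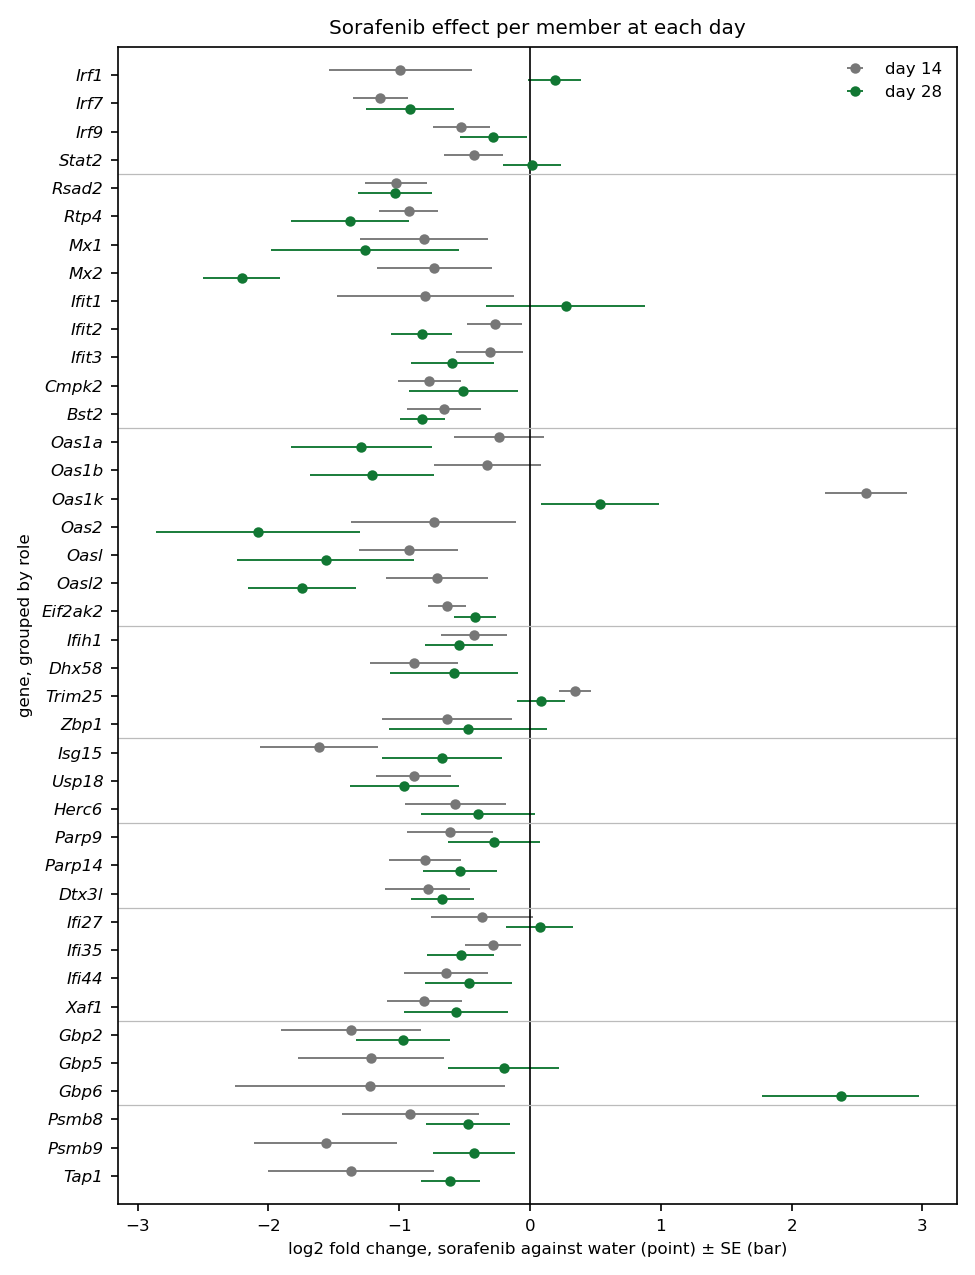
Log2 fold change of sorafenib against water (points) with its SE (bars) for each member at day 14 (grey) and day 28 (green), grouped by role. Most points lie left of 0 at both days, and Oas1k at day 14 and Gbp6 at day 28 lie farthest to the right at 2.57 and 2.37.

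All 4 transcription factors were below 0 in the average, and Irf7, the inducible factor that drives interferon-alpha genes, was the 1 called lower. Its CPM was 43.1, 32.0 and 47.1 in the water libraries of day 14 and 22.3, 18.9 and 13.9 in the sorafenib libraries. The day 28 values were 39.8, 18.8 and 37.6 with water and 11.1, 15 and 23.2 with sorafenib. The groups did not overlap at day 14, and at day 28 sorafenib replicate 4 lay above water replicate 3. The log2 fold change of Irf7 in the average was -1.04 ± 0.22 (SE, edgeR adjusted p = 0.0250). Irf9 and Stat2, parts of the ISRE-binding complex, were at -0.42 and -0.23 in the average and did not pass. Irf1 was at -0.42, and at 0.09 without water replicate 2 of day 14. Stat2 was at -0.04 without that library.

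Of the 9 genes of virus restriction, including the IFIT family that binds viral RNA ends, 9 were lower in the average and 4 fell. Rsad2 encodes viperin, an enzyme that makes a chain-terminating nucleotide. Its CPM at day 14 was 50.7, 53.1 and 43.5 with water and 34.5, 19.3 and 18.1 with sorafenib. After 28 days Rsad2 was at 33.7, 16.5 and 23.6 with water and 12.5, 13.4 and 10.4 with sorafenib. The groups were separate at both days, and the shift was of like size, with log2 fold changes of -1.03 ± 0.24 and -1.03 ± 0.29. In the average Rsad2 was at -1.05 ± 0.19 (edgeR adjusted p = 0.0185).

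Rtp4, an interferon-induced chaperone of receptors, also had separate ranges at both days. Its CPM was 17.2, 15.9 and 11.3 with water against 9.72, 7.12 and 6.42 with sorafenib at day 14. After 28 days the values were 15.5, 5.37 and 7.76 against 2.76, 5.01 and 4.05. The highest sorafenib library lay just under the lowest water library each time. At day 28 that sorafenib library was the shallow replicate 3, with 6 counts. The fold change in the average was -1.17 ± 0.25 (edgeR adjusted p = 0.0269).

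Mx2, a dynamin-like GTPase that restricts viruses, had the lowest log2 fold change of the members at day 28. There its CPM was 51.6, 27.0 and 33.7 with water and 6.39, 7.52 and 9.83 with sorafenib, so the groups were far apart (-2.20 ± 0.29, edgeR adjusted p = 0.0796). At day 14 it was 35.5, 45.8 and 53.0 with water and 46.8, 20.9 and 12.6 with sorafenib. Sorafenib replicate 5 lay within the water range, the other sorafenib libraries below it. In the average Mx2 was at -1.48 ± 0.28 (edgeR adjusted p = 0.0205). Exons of Mx2 overlap those of Tmprss2, so its counts are uncertain over the shared stretch. Its relative Mx1 was at -1.06 ± 0.48 and did not pass (edgeR adjusted p = 0.198), with sorafenib replicate 5 of day 14 at 19.3 CPM inside the water range of 14.6 to 24.6.

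Bst2 was the fourth of this group to fall. Its CPM was 25.5, 26.1 and 36 with water against 26.6, 11 and 17.6 with sorafenib at day 14, and 56.3, 49.6 and 60.5 against 28.9, 35.9 and 29.1 at day 28. The groups were separate at day 28 and overlapped at day 14 through sorafenib replicate 5. The fold change in the average was -0.76 ± 0.18 (edgeR adjusted p = 0.0343). The remaining 5 of the group did not pass. Ifit2 had CPM values of 48.0, 46.3 and 44.8 against 52.7, 29.9 and 32.0 at day 14 and of 67.1, 37.8 and 46.8 against 29.3, 29.2 and 25.6 at day 28. It was separate only at day 28 (average -0.57 ± 0.16, edgeR adjusted p = 0.0589). Ifit3 and Cmpk2, a mitochondrial nucleotide kinase, were at -0.47 and -0.69. Ifit1 differed from its relatives in that water replicate 7 of day 14 and water replicate 4 of day 28 stood high, at 23.4 and 12.7 CPM, against 2.22 to 4.88 CPM in the other water libraries. It was at -0.28 in the average, and at 0.40 and 0.36 without these libraries in turn.

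**Figure D3:**
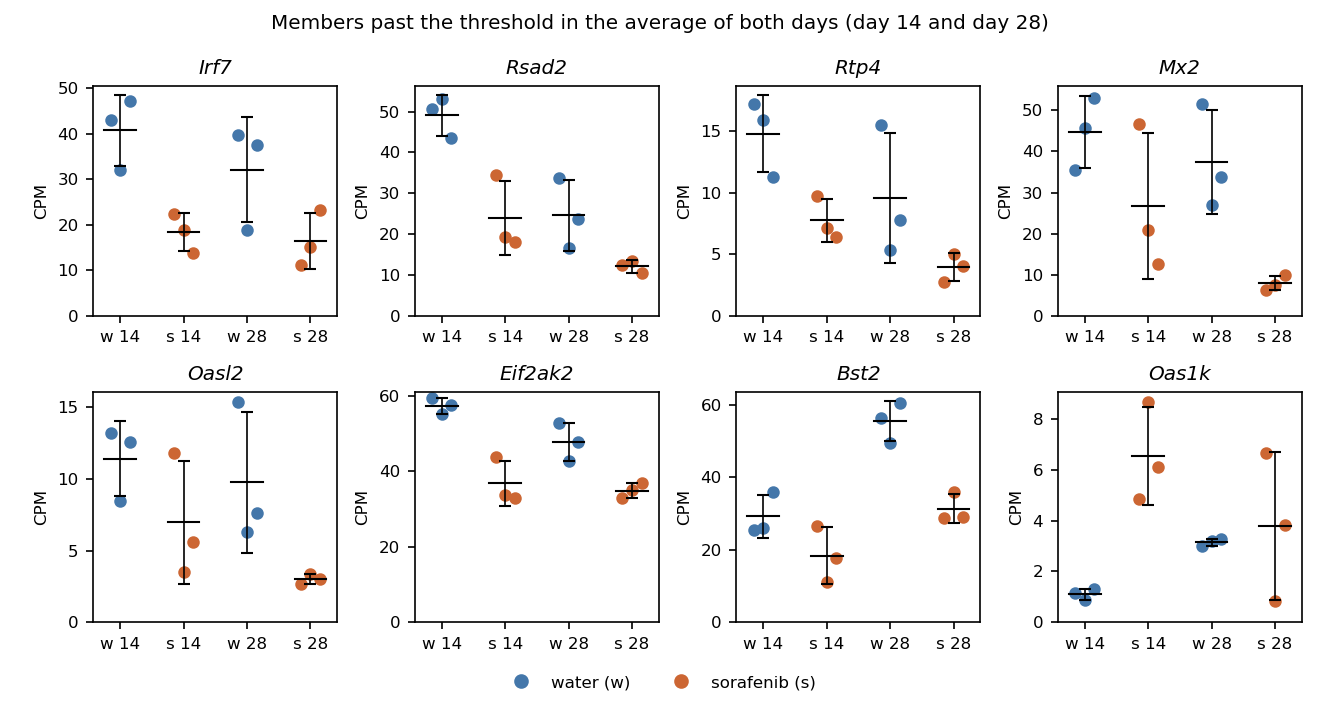
CPM of the 8 members called in the average of both days, by group (w water, s sorafenib; 14 and 28 are days); points are libraries, lines the mean and bars the SD (n = 3). Irf7, Rsad2, Rtp4, Mx2, Oasl2, Eif2ak2 and Bst2 lie lower with sorafenib, and Oas1k lies higher at day 14 with overlap at day 28.

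Oligoadenylate synthetases make the second messenger that activates RNase L, and Eif2ak2 encodes PKR, a kinase that halts translation on binding double-stranded RNA. Eif2ak2 stood at 59.4, 55.1 and 57.5 CPM with water against 43.7, 33.7 and 33.0 with sorafenib at day 14. Its day 28 values were 52.8, 42.7 and 47.8 against 32.8, 35.1 and 36.8. The groups were separate at both days, and the fold change in the average was -0.55 ± 0.10 (edgeR adjusted p = 0.0185).

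Oasl2, an oligoadenylate synthetase-like gene, had 13.2, 8.44 and 12.6 CPM in the water libraries of day 14, against 11.8, 3.50 and 5.57 with sorafenib. The values of day 28 were 15.4, 6.30 and 7.62 against 2.65, 3.34 and 2.99. It was separate at day 28 only, and fell in the average by 1.24 ± 0.31 on the log2 scale (edgeR adjusted p = 0.0384). Its call was lost in 10 of 18 alternatives, more than for any other of the 8 called members, and its exons overlap those of LOC120096007. Oas1a, Oas1b, Oas2 and Oasl were at -0.76, -0.78, -1.41 and -1.25 in the average, and none of these 4 passed.

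Oas1k ran against the other oligoadenylate synthetase genes of the set, mostly at day 14. Its CPM was 1.15, 0.864 and 1.30 with water and 4.86, 8.67 and 6.11 with sorafenib at day 14, from 17 to 24 counts per water library and 81 to 151 per sorafenib library. All 3 sorafenib libraries were above all 3 water libraries. The fold change was 2.57 ± 0.31, the smallest p of the members at that day, and did not pass over all genes (edgeR adjusted p = 0.0778). By day 28 its CPM had values of 2.99, 3.20 and 3.27 in water hearts and of 6.67, 0.835 and 3.85 in sorafenib hearts, and the groups overlapped through replicate 3, which holds 1 count. The fold change was 0.54 ± 0.45 at day 28, 0.76 without that library and -0.06 without sorafenib replicate 2. In the average Oas1k rose by 1.55 ± 0.28 (edgeR adjusted p = 0.0183), a call that, with libraries left out in turn, is lost without water replicate 3 of day 14 (adjusted p = 0.0524) and without sorafenib replicate 2 of day 28 (adjusted p = 0.0671).

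Oas1k lies at chr12:35762483-35771710 on the minus strand in mRatBN7.2, within a run of oligoadenylate synthetase genes between Oas1i and Oas2. Its neighbours in the family, named for their position, differed in direction. Oas1e, the family gene before it, was at 1.03 ± 0.59 in the average (edgeR adjusted p = 0.291). Oas3, the family gene after it, fell by 1.47 ± 0.36 (edgeR adjusted p = 0.0395). Of the counts of Oas1a, Oas1b and Oas1k together, Oas1k took 4.68 to 7.28% in the water libraries of day 14 and 17.9, 43.1 and 47.9% in the sorafenib libraries. In water replicate 3 of day 14 the exact 95% binomial interval of that share was 2.75 to 7.39%, and in sorafenib replicate 5 it was 14.5 to 21.8%. At day 28 the share was 10.6, 31.2 and 21.4% with water, 47.3 and 40.6% in sorafenib replicates 2 and 4, and 20% in replicate 3, where 5 counts leave an interval of 0.505 to 71.6%. These intervals cover counting error only. The genes are close copies, and counts of single members are uncertain to the extent that reads fit more than 1 of them.

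**Figure D4:**
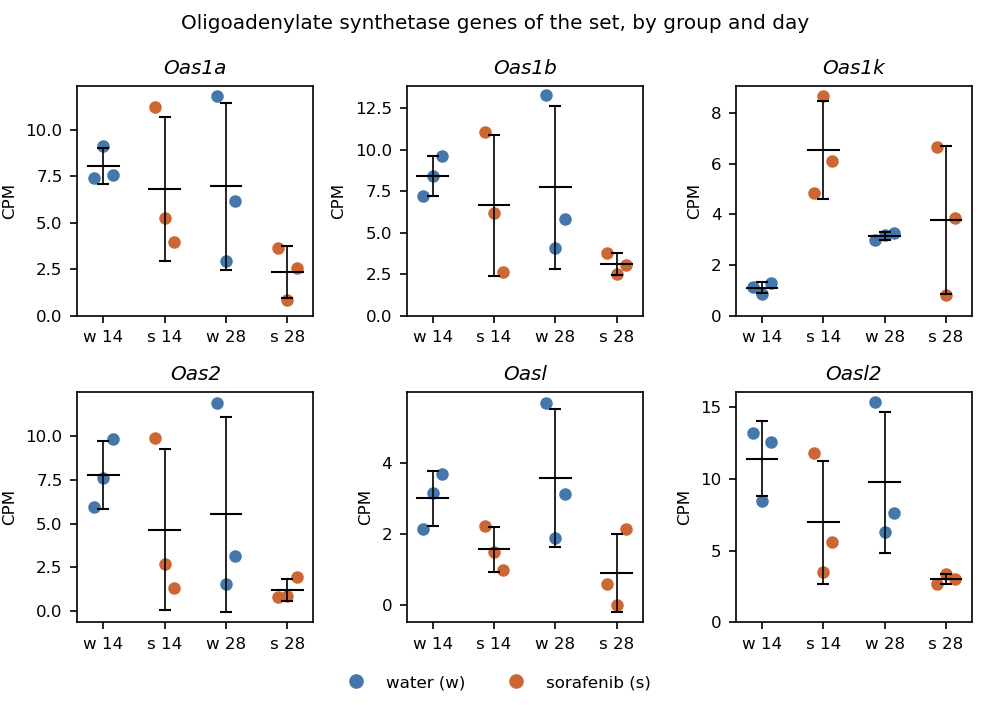
CPM of the 6 oligoadenylate synthetase genes of the set by group (w water, s sorafenib; 14 and 28 are days); points are libraries, lines the mean and bars the SD (n = 3). Oas1k at day 14 is the 1 panel in which all sorafenib points lie above all water points, and Oas2 and Oas1a are high in water replicate 2 of day 28 and sorafenib replicate 5 of day 14.

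Of the RNA sensors and their partners, Ifih1 (MDA5), Dhx58 (LGP2) and Zbp1 were lower in the average, at -0.50, -0.78 and -0.57, and 0 of 4 in this group passed. Trim25 was above 0. Its CPM was 85.9, 76.8 and 92.0 with water and 109, 110 and 103 with sorafenib at day 14, where all sorafenib libraries were above all water libraries. For day 28 the values were 124, 107 and 90.7 against 125, 88.5 and 117, which overlapped. The fold change of Trim25 was 0.34 ± 0.12 at day 14 and 0.20 ± 0.11 in the average (edgeR adjusted p = 0.270 and 0.287).

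Isg15 is a ubiquitin-like modifier, Herc6 its ligase in rodents and Usp18 the protease that removes it. Isg15 had 3.49, 2.59 and 3.58 CPM with water against 1.56, 1.21 and 0.363 with sorafenib at day 14, and the groups were separate. They overlapped at day 28, at 4.42, 1.97 and 3.12 against 2.07, 2.51 and 1.66. The fold change was -1.61 ± 0.45 at day 14 and -1.16 ± 0.33 in the average (edgeR adjusted p = 0.188 and 0.0575). Usp18 and Herc6 were at -0.92 and -0.51 in the average, and neither passed.

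Parp9 and Dtx3l, which work as a complex, and Parp14, a mono-ADP-ribosyltransferase, were at -0.46, -0.74 and -0.69 in the average, none past the threshold. Without water replicate 2 of day 14 Parp9 was at -0.21 and Dtx3l at -0.48. Exons of Parp9 and Dtx3l overlap each other. Ifi27, Ifi35, Ifi44 and Xaf1, whose exons overlap those of Fbxo39, lay between -0.72 and -0.17, and none of these 4 passed. Ifi27, at -0.17, was at 0.02 without sorafenib replicate 7 of day 14.

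Guanylate-binding proteins, GTPases that attack the vacuoles of intracellular pathogens, and the antigen-processing genes are strongly induced by interferon gamma. Irf1, Gbp2, Gbp5, Psmb8, Psmb9 and Tap1 shared a pattern that was noticed after the values were seen: water replicate 2 of day 14 stood high. Irf1 was at 86.5 CPM there, against 26.3 and 18.1 in the other water libraries and 23.9, 19.5 and 22.1 with sorafenib. Tap1, a subunit of the peptide transporter, was at 87.3, 25.2 and 18.1 with water and 24.8, 11.1 and 14.3 with sorafenib. Gbp2 was at 78.7, 25.5 and 21.4 against 23.2, 11.7 and 13.4. For Psmb9, an immunoproteasome subunit, the values were 31.4, 9.25 and 6.78 against 5.04, 5.06 and 5.93. The ratio of that library to the mean of the other water libraries was 4.04 for Tap1, 3.92 for Psmb9, 3.90 for Irf1, 3.45 for Gbp5, 3.36 for Gbp2 and 2.89 for Psmb8. With Dtx3l at 2.19 and Parp9 at 2.11, 8 of 40 members reached 2-fold or more there, against 3.45% of 18174 genes. Gbp6 was at 1.85. Stat2 at 1.78, Parp14 at 1.70, Mx1 at 1.61 and Ifit3 at 1.52 were also raised in that library. The median ratio was 1.29 over the members and 0.992 over all genes. For Mx2, Oas1a, Oas1b, Oas2 and Oasl the ratio was between 0.625 and 0.884, for Bst2 0.823 and for Ifit1 0.247. Summed CPM of the 20 macrophage markers was 555.5 in that library and 306.0 and 298.5 in the other water libraries of day 14, and their part in this was not tested.

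The fold changes of these genes at day 14 rested on that library. Irf1 was at -0.99 ± 0.55 with it and -0.02 ± 0.21 without it, Tap1 at -1.37 and -0.37, Gbp2 at -1.37 and -0.54, Gbp5 at -1.22 and -0.36, Psmb8 at -0.91 and -0.22, and Psmb9 at -1.56 and -0.59. Irf7 and Rsad2 were at -1.11 and -1.01 without it. In the average, leaving it out moved Tap1 from -1.01 to -0.48, Psmb9 from -1.03 to -0.50, Psmb8 from -0.71 to -0.34, Gbp5 from -0.76 to -0.29 and Gbp2 from -1.21 to -0.76. At day 28 Irf1 was at 0.19 ± 0.20, Psmb8 and Psmb9 at -0.47 and -0.42, Tap1 at -0.61 ± 0.23 and Gbp2 at -0.97 ± 0.36, none past the adjusted threshold.

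**Figure D5:**
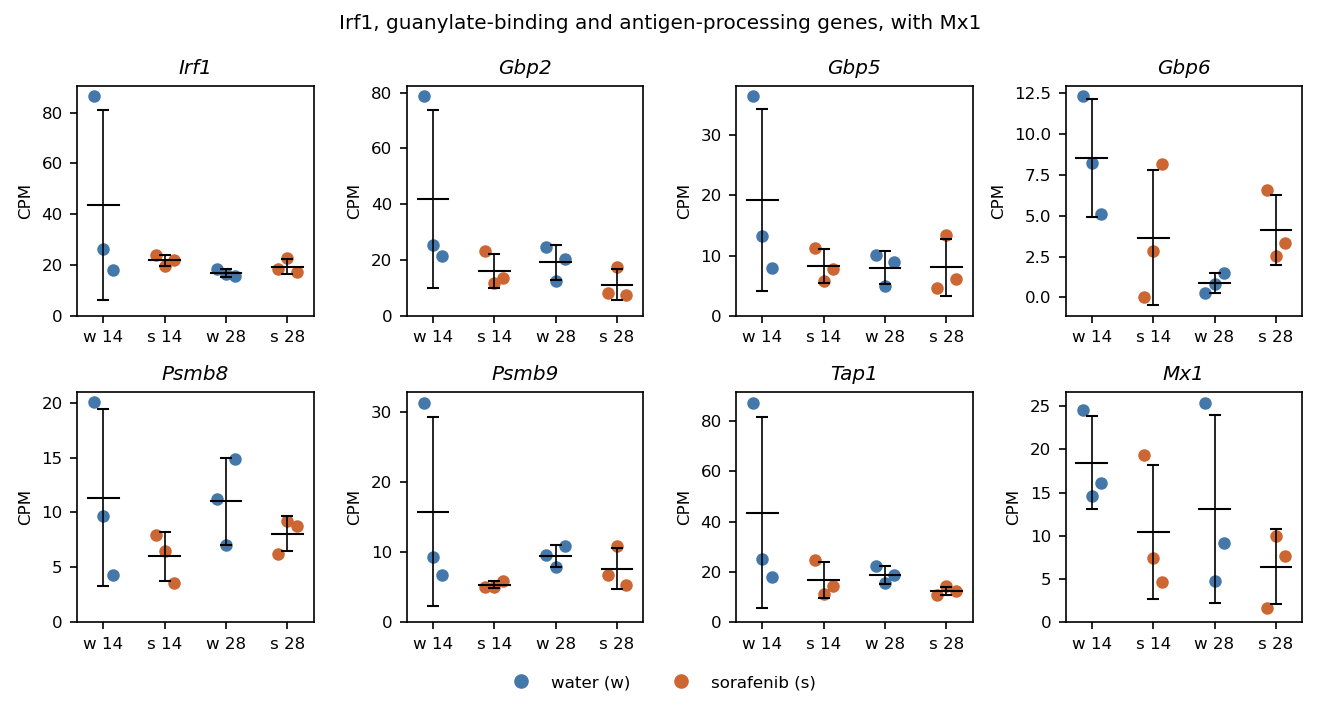
CPM of Irf1, Gbp2, Gbp5, Gbp6, Psmb8, Psmb9, Tap1 and Mx1 by group (w water, s sorafenib, 14 and 28 are days). Points are libraries, lines the mean and bars the SD (n = 3). Water replicate 2 of day 14 is the isolated high point for Irf1, Gbp2, Gbp5, Psmb9 and Tap1, and Gbp6 is low in all water libraries of day 28.

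In water replicate 2 of day 28 other members led, with Parp9 (2.36) the 1 member at 2-fold or more in this library and in water replicate 2 of day 14. Against the mean of the other water libraries of that day, Oas2 was 5.08 times as high, Mx1 3.63, Oas1b 2.69, Oas1a 2.60 and Herc6 2.55, whereas Irf1 was at 1.16, Psmb9 at 1.03 and Tap1 at 1.31. It was 9 of 40 members that reached 2-fold or more, against 7.07% of all genes. Summed macrophage CPM was 370.8 in this library, below the 377.6 and 587.9 of the other water libraries of the day. In sorafenib replicate 5 of day 14 the members 2-fold or more above the other sorafenib libraries were also 8 of 40, led by Oas2 at 4.91 and Mx1 at 3.21 times, against 5.44% of all genes.

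Gbp6 moved unlike Gbp2 and Gbp5. The water libraries of day 14 had 12.3, 8.24 and 5.10 CPM and the sorafenib libraries 0, 2.81 and 8.17, and the groups overlapped. Those of day 28 had 0.294, 0.837 and 1.51 with water, from 6, 17 and 32 counts, and 6.56, 2.51 and 3.32 with sorafenib, from 114, 3 and 50 counts. All sorafenib libraries lay above all water libraries at day 28 (2.37 ± 0.60, edgeR adjusted p = 0.175). In the average it was at 0.57 ± 0.64, and at -0.12 without sorafenib replicate 7 of day 14.

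Whether the sorafenib effect changed between the days was tested by the difference of the log2 fold changes, day 28 minus day 14. By edgeR 0 of 40 members passed, in which 0% of all genes passed, and DESeq2 also called 0 of the members, against 0.0495% of 18164 genes. An unadjusted p below 0.05 was found for 3 members, against 4.42% of all genes. These were Oas1k with a difference of -2.03 ± 0.55, Mx2 with -1.48 ± 0.56 and Gbp6 with 3.58 ± 1.29 (edgeR adjusted p = 0.999 each). The sign of the difference was below 0 in 17 of 40 members, against 52.1% of all genes. The number of members below 0 was 26 without water replicate 2 of day 14 and 11 without water replicate 2 of day 28.

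Between the water groups, 34 of 40 members were lower at day 28 than at day 14 (median -0.49). Over all genes 53.5% were lower (median -0.04). Rsad2 fell by 1.00 ± 0.26 on the log2 scale and Gbp6 fell by 3.26 ± 0.95. Oas1k rose by 1.51 ± 0.40 and Bst2 by 0.93 ± 0.24 (edgeR adjusted p = 0.0309, 0.0487, 0.0327 and 0.0317 in this order). These 4 of 40 compare with 8.51% of all genes called. DESeq2 called 7 members (5 lower and 2 higher), against 13.9% of 16754 genes. Without water replicate 2 or 3 of day 14, or replicate 3 or 4 of day 28, 0 of 40 passed. The days were counted in separate tables, and the time and the table cannot be told apart. The same water libraries serve the sorafenib comparisons.

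The upstream genes listed here, among which the called member Irf7 is not counted, did not pass. Of 9 ligands and receptors 6 could be tested, and 0 of 6 were called (median 0.05 in the average). Over all genes 2.41% were called lower and 2% higher in the average, the shares for this list and those below. In lists this short, 0 calls lie near those shares and do not show that the genes stayed unchanged. The receptor subunits Ifnar1 and Ifnar2 of type I interferon were at -0.07 ± 0.09 and 0.08 ± 0.12, Ifngr1 and Ifngr2 of interferon gamma at 0.09 ± 0.11 and -0.27 ± 0.13, and Ifnlr1 and Il10rb of type III interferon at 0.16 ± 0.20 and 0.03 ± 0.11. The ligand genes Ifnb1, Ifng and Ifnl3 had group means of at most 0.175 CPM, too low to test. Of 12 signalling genes 0 passed, and those of smallest p were Jak1 at -0.25 and Irf8 at -0.42. Of 20 genes that sense nucleic acid or relay from such sensors 17 were tested and 0 passed. Ddx58, which encodes RIG-I, was at -0.62 ± 0.18 (edgeR adjusted p = 0.0591), and Tlr7 at -0.80 ± 0.31.

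Other interferon-induced genes, from a list of 55 that shares no gene with the 40, were lower in 42 of 50 tested, with a median of -0.32. Of these 6 fell and 0 rose. They were Ube2l6, the conjugating enzyme for Isg15, at -1.34, Ly6e at -0.73, Oas3 at -1.47, Gbp4 at -1.42, Znfx1, a helicase that senses RNA, at -0.47, and Samd9 at -1.36. Of 20 antigen-presentation genes 20 were lower (median -0.51). The class II genes RT1-Da at -1.06 and RT1-Ba at -1.05 fell, as did the chaperone Canx at -0.55.

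Markers of macrophages were also lower with sorafenib. Of 20 such genes 20 were lower in the average (median -0.66), and 4 fell, which were Adgre1 at -1.31, Cybb at -1.14, C1qa at -1.23 and C1qb at -0.98. Their summed CPM was 298.5 to 555.5 with water and 169.7 to 361.5 with sorafenib at day 14. At day 28 it was 370.8 to 587.9 with water and 179.6 to 507.0 with sorafenib. Among the sorafenib libraries of day 28, replicate 3, the shallow library, had the highest summed macrophage CPM, 507.0 against 179.6 and 283.9 in replicates 2 and 4. It also had the members' median nearest to the water mean, at -0.26 against -0.73 and -0.55, with 18 members below all water libraries against 29 and 21. At day 14 sorafenib replicate 5 (361.5 CPM, -0.21) and water replicate 2 (555.5 CPM, 0.25) were highest of their groups in both. Sorafenib replicates 6 and 7 differed in order, at 169.7 and 232 CPM with medians of -0.92 and -1.09. Water replicate 2 of day 28 had the lowest macrophage sum of its group, 370.8 CPM, and the highest members' median, 0.43. Water replicate 3 of that day (377.6 CPM) was at -0.45, below sorafenib replicate 3, and water replicate 4 (587.9 CPM) at 0.007. Of 12 lymphocyte markers tested 6 were lower and 0 were called (median 0.04, with Ms4a1 and Cd4 of smallest p at -2.51 and -0.75). Among 7 dendritic cell markers 5 were lower (median -0.175), and Xcr1 fell (-2.08 ± 0.53). Of 10 neutrophil markers 3 could be tested, and all 3 were lower with 0 called (S100a8 at -2.62 and Lcn2 at -0.62 had the smallest p). Their summed CPM was 6.30 to 9.81 with water and 4.98 to 5.85 with sorafenib at day 28, which did not overlap, and 3.46 to 5.91 and 2.85 to 4.14 at day 14, which did. Of 12 endothelial markers 7 were lower (median -0.14, highest 0.25), and 2 fell, Kdr at -0.73 and Emcn at -0.54. Of 8 fibroblast markers 6 were lower (median -0.13, highest 0.64), and 1 fell, Lum at -0.77. The summed CPM of both lists overlapped between water and sorafenib at each day. Of 10 cardiomyocyte markers 8 were lower (median -0.03) and 0 were called. The part of these cell types in the members' values was not tested.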

How the data were processed

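Ribosome-depleted heart RNA in 12 rat libraries was sequenced with a kit that marks strand, per the labels. The authors deposited counts of reads for each gene. Per the file headers, featureCounts 2.0.1 made them in paired mode without a strand option from RefSeq's annotation of mRatBN7.2, so overlapping genes cannot be told apart. Exons of 5 members overlap another gene. STAR is named without a version in the submitters' processing notes. Left out were 2 columns of the deposited counts that no label matches.

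The main test was that of edgeR 4.0.16 under R 4.3.3 (quasi-likelihood, robust, filterByExpr, TMM) over all genes with Benjamini-Hochberg adjustment, within each day (6 libraries) and in 1 fit of 12 libraries for the average, the difference and the water groups. SE is the log2 fold change over the root of F. DESeq2 1.42.0, RLE factors, other filters (none, or 1 CPM in 3 libraries), no robust step, a joint fit, a replicate block and each library left out were the alternatives. Code was tested on simulated counts. Libraries of a group differed beyond sampling noise (chi-square per gene of at least 8.075).

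Members, lists and tests were chosen with earlier results of these data known. Per-library values are given for members called in any comparison, the 6 of smallest p at each day, those above 0 in the average and Oas1k; other lists name genes past the threshold (at most 6), or else the 2 of smallest p. Naming of Irf1, Tap1, Gbp2 and Psmb9 by library, and leaving out libraries for the counts of separate groups, followed from seeing the values. Each of the 40 members has the same chromosome number in mRatBN7.2 and in GRCr8, the assembly from which promoters were taken by symbol.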

Additional observations from a re-analysis of the deposited data

How the results depend on the processing

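Of the counts and medians over the members, 208 values under alternatives stayed near the reported ones and 23 moved; of the results of the members tested by name, 322 kept their side of the threshold, 69 lost and 18 gained a call, and 2 turned sign (beside the counts of separate groups, given in the text). Over all 40 members the sign turned under at least 1 alternative for 4 at day 14, 9 at day 28, 4 in the average (Irf1, Ifit1, Ifi27 and Gbp6), 21 in the difference and 13 between water groups. Members called at day 14 were 7 by DESeq2, 2 without a filter and 0 to 2 with 1 library left out, at day 28 they were 4, 1 and 0 to 1, and in the average 17 by DESeq2 and 0 to 11 with 1 library left out. Members called between water groups were 7 by DESeq2 and 0 to 5 with 1 library left out. Over all genes the same leave-outs called 0 to 27 at day 14, 0 to 3 at day 28, 35 to 1562 in the average and 558 to 1812 between water groups, and fits without a filter called 87 at day 14 and 82 at day 28. The number below 0 in the difference between days was 11 to 26 with 1 library left out. With 1 library left out, members with separate groups were 10 to 30 at day 14 and 11 to 22 at day 28. Oas1k at day 28 was at -0.063 without sorafenib replicate 2 and 0.763 without replicate 3, and Gbp6 in the average at -0.118 without sorafenib replicate 7 of day 14 and 0.893 without water replicate 4 of day 28. The cause was not tested. Replicate numbers are shared by the groups of day 28, but the labels do not say that same-numbered libraries share a rat or batch. They were therefore not treated as pairs. Correlations of deviations were 0.106, 0.008 and 0.194 for same-numbered libraries and -0.194 to 0.06 for the others, which does not decide it. With the replicate block 1 member (Mx2) passed at day 28, where 108 of all genes did. In the average 3 members passed (Mx2, Rsad2 and Bst2, all lower), where 45 of all genes did. In the average this block rests on the libraries that share a number within a day, which leaves 1 pair at day 14, and there Oas1k was at 0.852 (edgeR adjusted p = 0.384), Mx2 at -2.225 and Irf1 at 0.197. Depth limits sorafenib replicate 3 of day 28, in which 1 count is 0.965 CPM. Oas1k, Oasl, Oas1a, Oas2 and Zbp1 have at most 1 count there and are poorly measured. Isg15, Oas1b and Gbp6 have 3 counts, Oasl2, Usp18 and Ifit1 have 4 and Rtp4 has 6. The separate groups of Rtp4, Oasl2, Oas1b and Gbp6 at day 28 thus also rest on few counts in that library.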
